A study of Chlamydomonas reinhardtii with 25 samples.

Results

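The ternary mixture of cerium (Ce), thulium (Tm) and yttrium (Y) was set against the mean of the 3 metals given alone, in the unicellular green alga Chlamydomonas reinhardtii. The comparison took the 5 libraries of the mixture (Mix) and the 15 libraries of the single metals by their sample titles, 20 of the 25 libraries of the series, and it was made in 12796 of the 19526 annotated transcripts, called genes here. All groups were wild-type strain CC-125, grown at 20 °C with 12 h of light per day. They were taken in mid-exponential growth and kept for 2 h at pH 7.0 in a medium of 10 mM NaHEPES and 10 µM calcium nitrate. The Ce, Tm and Y groups received 0.5 µM of 1 metal, and Mix an equimolar combination of them. Whether 0.5 µM is the total in Mix or the level of each metal is not labelled, so at an equal total the mean of the metals is the matching dose, and at an equal level of each it is not. The control group (5 libraries) received no labelled metal and entered the fit for the spread and as the level without exposure.

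Rare earth elements occur in water mostly as trivalent ions, and their size is close to that of calcium, whose binding sites they can occupy. Cerium is a light member of the series and thulium a heavy one, and yttrium behaves chemically like the heavy members. Where metals compete for the same site on an algal surface, each can be taken up less from a mixture than alone, and for this reason mixtures are commonly compared with their components. Antagonism between the elements is the subject that the title of the series gives. The files hold no measure of metal uptake.

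Totals ran from 12920957 to 28974088 counts per library. Levels are CPM, read counts scaled to the TMM-normalised library total, as mean ± SD over 5 libraries. The scaling factors averaged 1.43 in Ce and 0.931, 0.964 and 0.921 in Tm, Y and Mix, so every value that sets Ce against another group rests on that scaling. In the control they averaged 0.862 ± 0.180 (SD), from 0.694 in library 4 to 1.16 in library 1. Values set against the control thus rest on the scaling too. Differences are log2 differences of group coefficients with their standard error (SE), and a gene is called where the Benjamini-Hochberg adjusted p of edgeR's quasi-likelihood test was under 0.05. The labels do not say whether replicates were separate cultures, so the p-values are measures of spread between libraries. The table pairs its IDs with no gene names and the reference gives locus tags only, so no function is attached to any gene. Lower transcript per cell and fewer cells carrying it cannot be told apart in pooled cultures.

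Most of the difference between Mix and the mean of the metals was the distance of Ce from the other exposures. Of the 12796 genes, 6904 (54.0%) were called, 3228 (25.2%) higher and 3676 (28.7%) lower in Mix. Against Ce alone 10079 genes (78.8%) were called, against Y 4551 (35.6%) and against Tm 150 (1.17%). These counts come from a fit that does not pair libraries by replicate number. In a fit of the Mix and Tm libraries alone the count was 162, and 2329 with the replicate number as a block. With Ce left out, Mix differed from the mean of Tm and Y in 2424 genes (18.9%). Over all 12796 genes, 98.1% of Mix coefficients lay within 2-fold of Tm, 90.1% within 2-fold of Y and 51.8% within 2-fold of Ce. The median log2 difference from Tm was -0.00489, while that from the mean was -0.11. Single differences from the mean are to be read against that shift, which was -0.0299 with DESeq2's size factors, -0.344 with library totals alone and, once control library 1 served as TMM reference, 0.0329. The share of calls that were higher in Mix, 46.8%, was 54.1%, 26.9% and 64.2% under these 3 scalings.

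The calls were then divided by which metal they depended on. For each called gene the mean was formed again without Ce, without Tm and without Y, and the call was tested again each time. Leaving out Ce, and no other metal, ended the call in 4680 genes, 67.8% of the 6904 (2178 higher and 2502 lower). Leaving out Y alone ended it in 382 genes (166 higher and 216 lower, 5.53%), and leaving out Tm alone in 11 (3 higher and 8 lower, 0.159%). In 284 genes (4.11%) the loss of any of 2 or 3 metals ended the call. In 1531 genes (22.2%) no single omission did so, yet Mix did not pass the test for lying beyond all metals. That test, described further on, was passed by 16 genes, 0.232% of the calls. These classes come from the same contrasts as the calls and are a description of them.

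**Figure D1:**
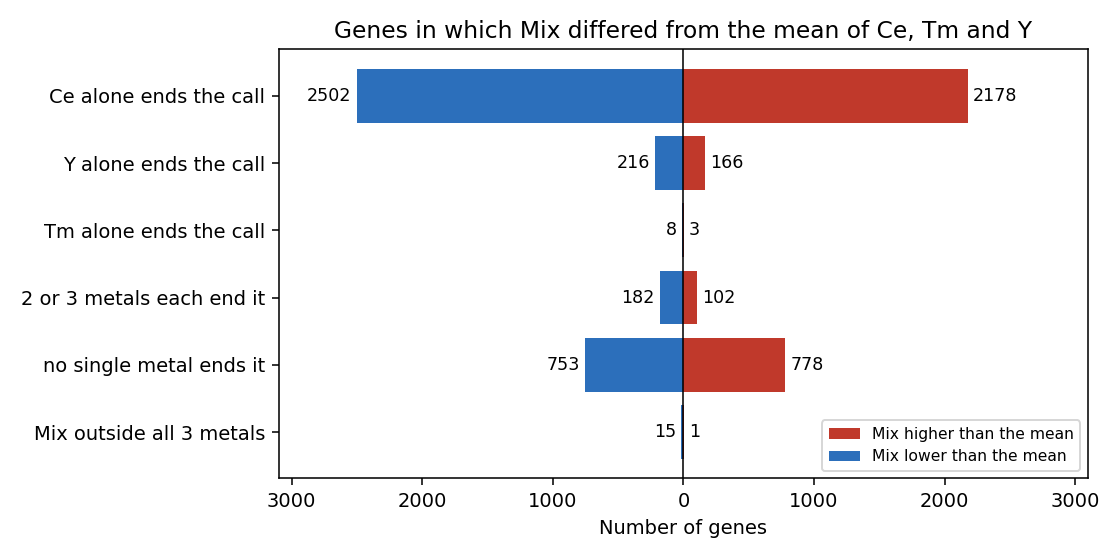
Number of genes (x axis) in which Mix was called higher (right) or lower (left) than the mean of Ce, Tm and Y, by the metal whose omission from the mean ended the call. The Ce class holds 2178 and 2502 genes, and the class with Mix beyond all 3 metals 1 and 15.

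Seen gene by gene, 3480 of the 6904 calls (50.4%) were also called in the same direction against Ce and neither of the others. A further 2877 (41.7%) were called against Ce and Y but not Tm, and 406 (5.88%) against Y only. In this fit, made without a replicate block, calls against Tm were rare at any of these places. There were 43 genes called against Tm and Y, 9 against Ce and Tm, 2 against Tm only and 70 (1.01%) against all 3. Another 17 were called against the mean and no metal.

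Placed among the single metals, Mix lay nearest to Tm in 9090 genes (71.0%), to Y in 2598 (20.3%) and to Ce in 1108 (8.66%). The log2 CPM of each Mix library was also written as a weighted sum of the Tm, Y and Ce means with weights that add to 1, across genes, which are not replicates. The weight of Tm was 1.08 ± 0.197 (SD, n = 5, 0.796 to 1.34), that of Ce 0.0219 ± 0.0746 and that of Y -0.0983 ± 0.143, where an equal mean would give the same weight to each. Mix library 1 had the lowest Tm weight and Mix library 4 the highest.

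The root mean square distance from the Tm mean was 0.412, 0.410, 0.437, 0.520 and 0.444 log2 units in Mix libraries 1 to 5. The distance of each from the mean of the other Mix libraries was 0.441, 0.361, 0.386, 0.478 and 0.442. By these values Mix library 1 lay nearer to the Tm mean than to that of the other Mix libraries. The Tm mean holds all 5 Tm libraries, that of the same number included, and the other mean rests on fewer libraries, so the distances are not fully alike. Distances from Y ran from 0.541 to 0.793, from the mean of the 3 metals from 0.518 to 0.835 and from Ce from 1.18 to 1.50, and in every Mix library the Ce distance was the longest of these. The Tm libraries lay 0.346 to 0.438 from the other Tm libraries.

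**Figure D2:**
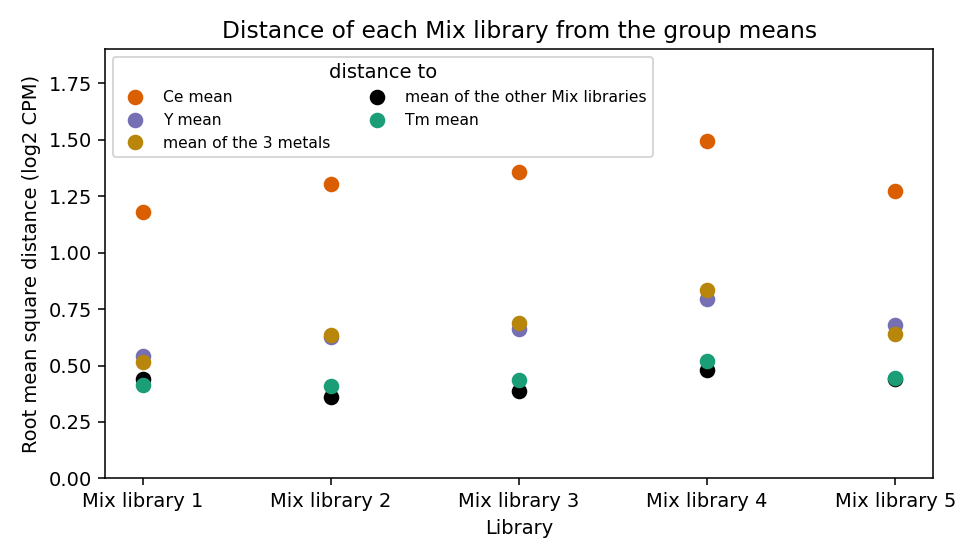
Root mean square distance over 12796 genes, in log2 CPM (y axis), of each Mix library (x axis) from the group means. The distance from Tm (0.410 to 0.520) overlaps that from the other Mix libraries (0.361 to 0.478), and the Ce distance (1.18 to 1.50) lies above all others.

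The 4680 genes of the Ce class had medians of opposite sign in Ce and in the other exposures. Among the 2178 that were higher in Mix than the mean, the median log2 difference from the control was -0.75 in Ce, while Tm had 0.34, Y 0.22 and Mix 0.41. Among the 2502 that were lower these medians were 1.24, -0.42, -0.11 and -0.57. In 87.9% of the class Mix lay within 0.5 log2 units of the mean of Tm and Y. That share follows in part from the rule, since the class holds genes whose call ended against that mean. Over all 12796 genes Mix lay within 0.5 of Tm in 89.1%. A call in this class thus carries a median difference from the mean of 0.51 or -0.73 where Mix and Ce differ by 1.21 or -1.65.

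Cre08g372200 shows the class where Mix was higher. Its CPM were 11.0, 21.8, 24.4, 19.6 and 11.3 in Mix libraries 1 to 5, 8.05, 16.2, 22.0, 16.6 and 9.16 in Tm, and 4.89, 12.5, 9.51, 5.07 and 6.89 in Y. In Ce they were 0.803, 1.67, 1.58, 1.70 and 0.917, below the other exposed libraries without overlap, while Mix and Tm overlapped widely. The control stood at 3.56 ± 1.78 CPM. Mix exceeded the mean of the metals by 1.73 ± 0.25 (edgeR adjusted p = 3.11e-06), Ce by 3.71 ± 0.37 and the mean of Tm and Y by 0.73 ± 0.27 (edgeR adjusted p = 0.0548). Mix was also called above Y, by 1.18 ± 0.32 (edgeR adjusted p = 0.00579). Of the 4680 genes of the Ce class, 1261 were likewise called against Y, in the direction of their difference from the mean.

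Cre03g153650 was nearly silent in the control and in Ce, with 2 and 6 counts over 5 libraries, and had 125, 83 and 120 counts in Tm, Y and Mix. Its CPM were 1.66, 0.619, 1.03, 1.45 and 1.70 in the Mix libraries, 2.34, 0.404, 1.12, 1.53 and 1.69 in Tm and 0.633 to 1.26 in Y. Ce ran from 0 to 0.125. The log2 difference of Mix from the mean was 1.73 ± 0.33 (edgeR adjusted p = 1.06e-04) and from the mean of Tm and Y 0.18 ± 0.31 (edgeR adjusted p = 0.724).

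Where Mix was lower, Ce was the group with the high level. Cre12g513650 had 2.20, 2.32, 1.54, 1.66 and 2.02 CPM in Ce libraries 1 to 5. Tm ran from 0.0808 to 0.363, Y from 0.121 to 0.341 and Mix from 0.0516 to 0.0999, the last resting on 6 counts in all. Mix overlapped Tm and no other group. Its log2 difference was -2.59 ± 0.47 from the mean (edgeR adjusted p = 6.24e-05) and -1.48 ± 0.54 without Ce (edgeR adjusted p = 0.0521). Against Y alone Mix was called lower, at -1.58 ± 0.59 (edgeR adjusted p = 0.0379). Cre01g051300 had 157 counts over the Ce libraries, 7 in Tm, 22 in Y and 3 in Mix. Its level in Ce was 32.1 times that in Mix (95% exact interval 10.8 to 157, counting error only) while Y stood at 7.37 times Mix (2.21 to 38.4) and Tm at 2.58 times (0.589 to 15.5). Mix was thus called below Y as well (edgeR adjusted p = 0.0272), and its log2 difference from the mean of Tm and Y was -1.94 ± 0.96 (edgeR adjusted p = 0.159). The 3 Mix counts stood in libraries 4 and 5, and the other Mix libraries were at 0.

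**Figure D3:**
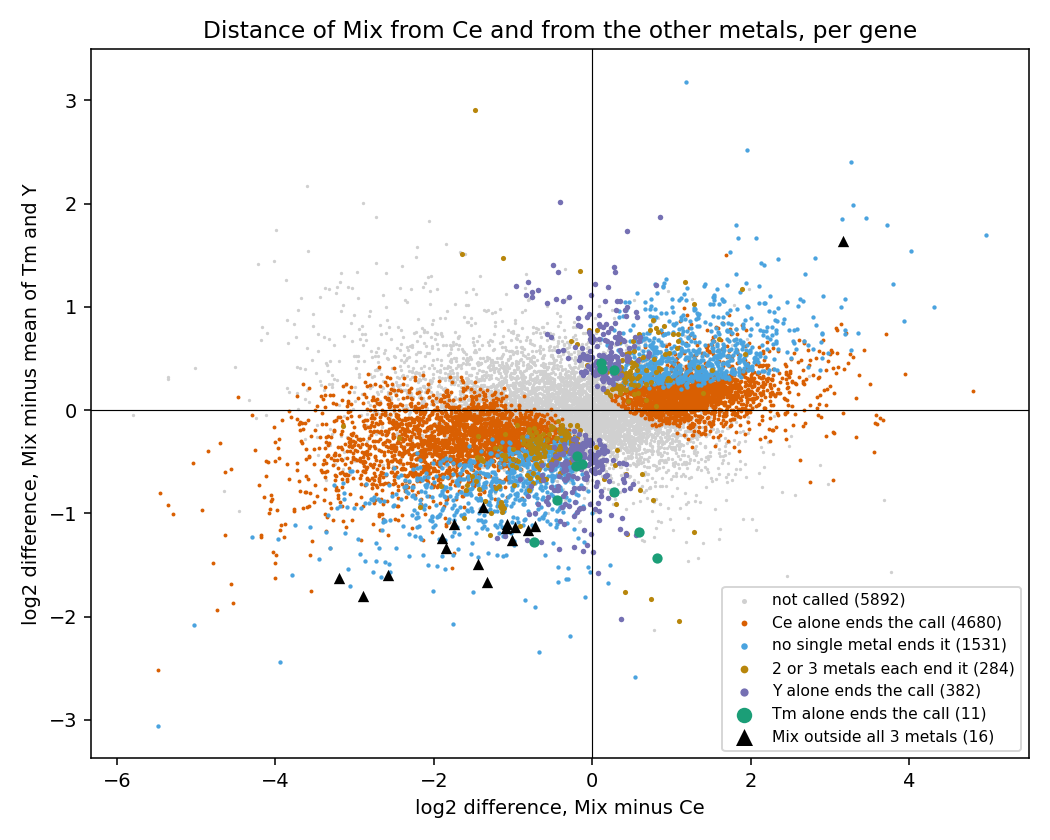
Log2 difference of Mix from Ce (x axis) and from the mean of Tm and Y (y axis) for 12796 genes, coloured by class. Of the 4680 genes of the Ce class 87.9% lie within 0.5 of a y value of 0, which the rule of the class favours. The 16 genes with Mix beyond all metals (triangles) lie away from both axes, 15 of them at the lower left.

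The 382 genes of the Y class had medians of 1 sign in all exposures, with that of Y farthest from the control. In its 216 genes with Mix lower than the mean, the median log2 difference from the control was 0.99 in Mix, against 1.10 in Ce, 1.21 in Tm and 1.83 in Y. In the 166 with Mix higher it was -1.46, -1.45, -1.73 and -2.42 in the same order. Mix differed from Y by a median of -0.81 and 0.89 in these sets, and from Ce by -0.13 and 0.15.

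Cre17g713700 had 0.309, 0.251, 0.182, 0.293 and 0.316 CPM in Y libraries 1 to 5, against 1.37, 3.15, 2.43, 1.82 and 1.70 in Mix. Ce ran from 1.79 to 4.51 and Tm from 0.634 to 1.51, so Y lay below all of them without overlap, and Mix overlapped Ce and Tm. The log2 difference of Mix from the mean, 1.21 ± 0.22 (edgeR adjusted p = 6.09e-05), became 0.35 ± 0.22 without Y (edgeR adjusted p = 0.172). In g15493 Y was likewise the lowest group, at 0.328 ± 0.114 CPM in Y, 0.712 ± 0.225 in Ce, 0.870 ± 0.347 in Tm and 1.25 ± 0.50 in Mix.

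On the other side, g8737 had 3.19, 2.06, 3.63, 1.76 and 1.45 CPM in the Y libraries and 0.915, 0.516, 0.851, 0.416 and 0.549 in Mix. The Ce libraries (0.611 to 1.40) and the Tm libraries (0.602 to 1.41) overlapped Mix, and Y lay above all of them. The difference from the mean was -1.06 ± 0.29 (edgeR adjusted p = 0.00310) and without Y -0.65 ± 0.30 (edgeR adjusted p = 0.0674). g3415 was at 2.37 ± 0.15 CPM in Y, 1.42 ± 0.69 in Tm, 0.349 ± 0.119 in Ce and 0.453 ± 0.171 in Mix, and there Mix was also called below Tm, by 1.65 ± 0.31 on the log2 scale (edgeR adjusted p = 0.00264).

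Leaving out Tm alone ended the call in only 11 genes. Of these, 5 were called against Tm itself, all with Mix lower, and none of the 3 with Mix higher was. g16355 had 2.88, 2.34, 3.07, 1.16 and 4.10 CPM in Tm libraries 1 to 5 and 0.229, 0.825, 0.365, 0.364 and 0.799 in Mix. Ce ran from 0.541 to 1.18 and Y from 0.293 to 0.854, both overlapping Mix, and the control stood at 2.82 ± 0.50. The level in Tm was thus close to the control, and those in Ce, Y and Mix were called lower than the control. Mix differed from Tm by -2.37 ± 0.33 (edgeR adjusted p = 3.98e-05) and from the mean of Ce and Y by -0.46 ± 0.32 (edgeR adjusted p = 0.204).

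Cre02g144734 had 9.37, 8.89, 8.18, 11.0 and 14.3 CPM in Tm and 1.72, 3.04, 3.04, 3.12 and 3.30 in Mix, with 1.28 to 2.06 in Ce and 4.73 to 8.03 in Y. Mix therefore lay between Ce and Y, overlapping Ce in library 1. It differed from the mean by -0.68 ± 0.20 (edgeR adjusted p = 0.00545), and without Mix library 1 by -0.39 (edgeR adjusted p = 0.0966). The latter fit also took control library 1 as scaling reference. Without Mix library 1 but with Tm library 2 kept as the reference, the gene was still called. In g5114 and Cre03g190000 Mix was higher than the mean by only 0.34 ± 0.13 and 0.31 ± 0.11, and with library totals alone these became 0.10 and 0.07 (edgeR adjusted p = 0.461 and 0.578).

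**Figure D4:**
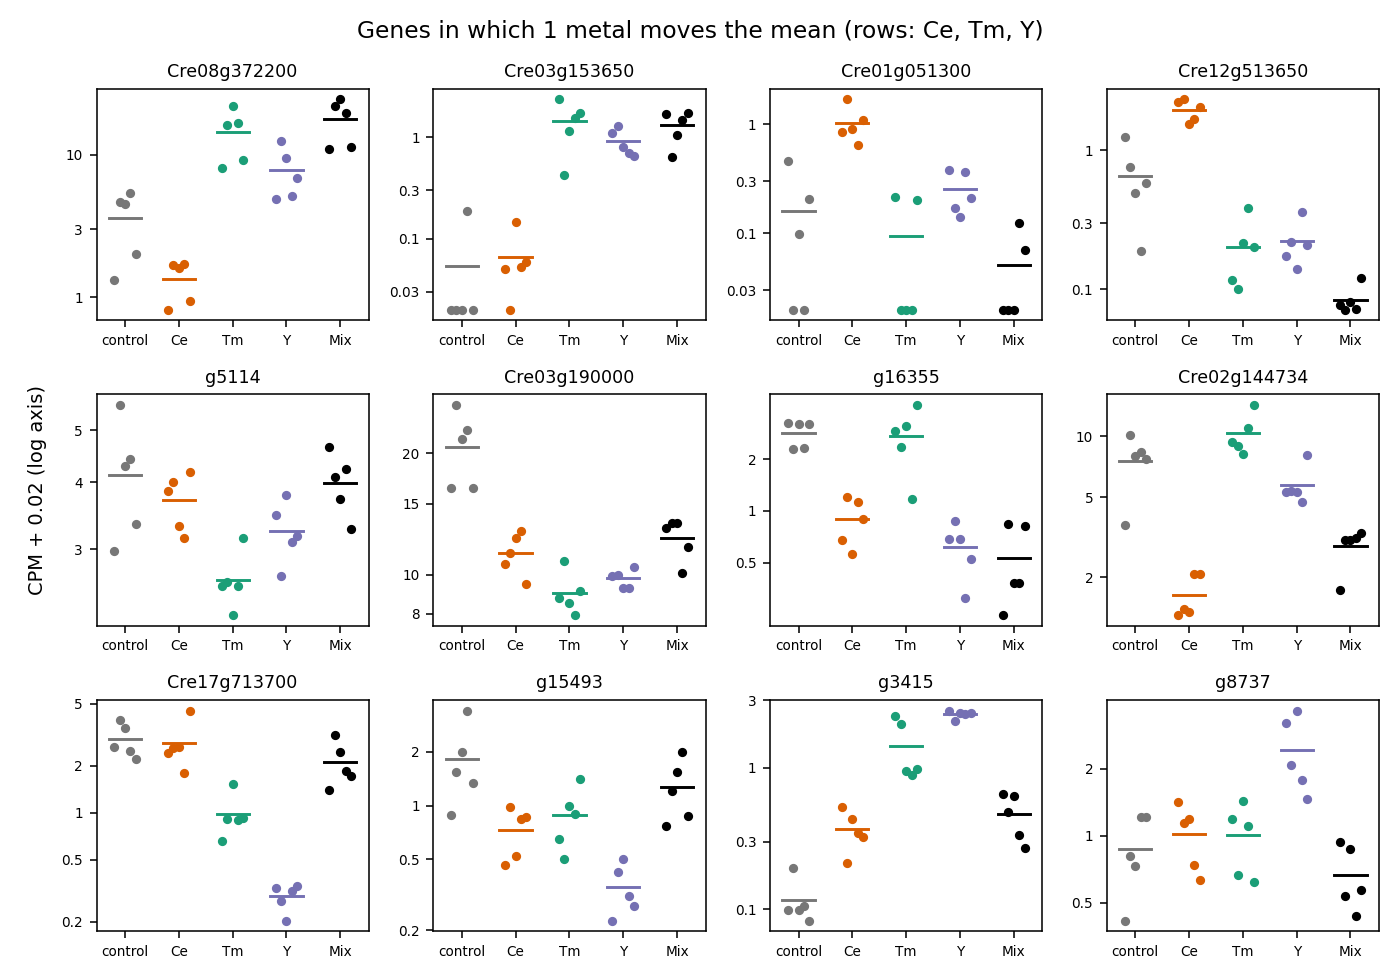
CPM plus 0.02 on a log axis (y) by group (x) in 12 genes in which leaving out 1 metal ended the call. There is 1 point per library and a line at the group mean. In the 4 upper panels Ce lies apart from the other exposures, in the middle panels the mean of Tm is at the end opposite to Mix or far from it, and in the lower panels that of Y, while Mix overlaps at least 1 metal in each panel.

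A gene had Mix outside the range of the metals when its differences from Ce, Tm and Y had 1 sign and the largest of the 3 p-values, adjusted over all 12796 genes, was under 0.05. This held in 16 genes (0.125%), 15 below the metals (0.117%) and 1 above (0.00781%). By the same rule Ce lay outside the other 3 exposures in 7749 genes (60.6%), Y in 586 (4.58%) and Tm in 3 (0.0234%). A place at the outer end of the 4 group means, with no test, was held by Mix in 2897 genes above and 3614 below. In 163 genes (1.27%) the 5 Mix libraries did not overlap any of the 15 single-metal libraries, 84 above and 79 below. The same count was 33 (0.258%) for Tm, 838 (6.55%) for Y and 6807 (53.2%) for Ce. Of the 16 genes, 15 were free of overlap, the exception being Cre10g456100. Cre02g112266, Cre01g002950 and Cre14g629150 were named by the rule for named genes, and the other 13 after their values were seen.

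The size of this class depended on the model more than that of the Ce class. With the replicate number as a block in all 25 libraries, Ce, Y and control included, it was 67 genes, 47 of them below. Calls of Mix against Tm were then 288 in place of 150. By DESeq2 the class held 34 genes. In a fit of the 20 exposed libraries it was 84, and it was 32 without Mix library 1, 1 without Mix library 2, 3 or 4, 10 without Tm library 4, and 7 without Tm library 1, 2 or 3 or Y library 1, 2, 3 or 4. In each of these fits with a library left out, edgeR took control library 1 as scaling reference in place of Tm library 2. With Tm library 2 kept as the reference the count was 27, 9, 8 and 8 without Mix library 1, 2, 3 and 4 and between 11 and 20 without any other exposed library but Tm library 2, where it could not be kept. Cre02g144800 was in the class in all 54 fits and thresholds compared, g10027, Cre17g7239501, g15210, Cre14g629150 and g16857 in 51, and g1876 in 50. The remaining genes of the class were in it less often, from 23 (Cre10g456100) to 38 (Cre13g588700) of the 54. Cre02g112266 was in it in 36 and Cre01g002950 in 29. The 54 include the main fit, and the fits without a Ce library enter under both reference settings with the same counts, so they are not 54 separate checks.

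Cre02g144800 had the smallest p of the class. Its CPM were 16.7, 14.4, 10.9, 16.4 and 16.3 in Mix libraries 1 to 5, against 56.0, 59.2, 58.8, 51.1 and 52.8 in Ce, 34.3, 39.4, 36.9, 39.7 and 49.8 in Tm and 30.9, 32.3, 30.1, 27.8 and 35.5 in Y. Each Mix library lay below every single-metal library, and also below the 5 controls (27.4 to 31.9). The log2 differences were -1.89 ± 0.12 from Ce, -1.42 ± 0.12 from Tm and -1.07 ± 0.11 from Y, and the edgeR adjusted p of the largest p was 5e-06. Against the control, Ce was called higher by 0.87, Tm by 0.39 and Mix lower by 1.03 ± 0.11 (edgeR adjusted p = 5.15e-09), while Y stood at 0.04.

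g10027 had 4.92, 3.87, 4.87, 4.41 and 7.34 CPM in Mix, 11.5 to 14.4 in Ce, 15.4 to 19.3 in Tm and 12.1 to 17.5 in Y. All 15 single-metal libraries lay above the highest Mix library, and the controls (5.42 to 9.48) overlapped Mix library 5 only. All metals were called higher than the control, by 0.84, 1.22 and 1.13 in Ce, Tm and Y, and Mix was called lower by 0.49 ± 0.17 (edgeR adjusted p = 0.0118). The adjusted p for lying outside was 4.4e-05 by edgeR's test.

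In 4 genes of the class every metal was called higher than the control and Mix was not called. Cre17g7239501 was at 2.73, 2.14, 1.74, 2.96 and 1.50 CPM in the control and 2.63, 2.68, 2.55, 3.22 and 3.20 in Mix. The means of Ce, Tm and Y were almost equal, at 6.02 ± 0.56, 6.21 ± 0.76 and 6.13 ± 0.70 CPM, with the lowest of their 15 libraries at 5.29. Mix lay between 1.07 and 1.12 log2 units below each metal, and 0.36 ± 0.17 from the control (edgeR adjusted p = 0.0548). The other genes with this course were g16857, Cre16g6728501 and Cre03g182200. In Cre16g6728501 Mix (2.84 ± 0.21 CPM) stood at the control level (2.91 ± 1.02), with Ce, Tm and Y at 7.37 ± 0.83, 5.58 ± 0.77 and 5.32 ± 0.80.

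In another 3 genes all exposures were called higher than the control, with Mix the lowest of them. Cre03g170350 had the widest range of the class, at 6.49 ± 1.36 CPM in the control. Its Mix libraries had 110.0, 107, 81.7, 66.0 and 101 CPM, the Tm libraries 130.0 to 171, the Ce libraries 155 to 214 and the Y libraries 278 to 389. The log2 difference of Mix was 3.82 ± 0.16 from the control, -0.72 ± 0.14 from Tm and -1.81 ± 0.14 from Y (edgeR adjusted p = 0.0168 for lying outside). g15210 stood at 1.50 ± 0.32 CPM in the control, 2.39 ± 0.53 in Mix and 5.09 to 5.33 in the means of the metals. Cre01g004950 followed the same order at 6.65 ± 2.65, 15.1 ± 2.0 and 26.4 to 34.6 CPM.

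Both genes in which all metals were called lower than the control had a still lower level in Mix. Cre13g588700 had 35.3, 27.9, 36.7, 23.1 and 32.3 CPM in the control and 9.55, 7.12, 6.33, 7.38 and 7.19 in Mix. The Ce, Tm and Y libraries ran from 12.0 to 16.6, 11.6 to 17.5 and 15.0 to 20.6, between control and Mix with no overlap with either. Mix was 2.05 ± 0.15 below the control and 0.98 ± 0.14 below Ce on the log2 scale (edgeR adjusted p = 6.1e-04 for lying outside). Cre03g1920501 fell from 27.1 ± 7.9 CPM in the control to 12.8 ± 1.5, 7.24 ± 1.40 and 9.33 ± 1.78 in Ce, Tm and Y and 3.83 ± 0.73 in Mix.

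In 6 genes Mix was called lower than the control and no metal was, among them Cre02g144800 and g10027 above. g1876 had 1.72, 1.13, 1.03, 1.19 and 1.15 CPM in the Mix libraries, while Ce stood at 11.4 ± 2.0, Tm at 4.40 ± 0.77, Y at 3.38 ± 0.81 and the control at 2.92 ± 0.91. Cre14g629150 stood at 3.52 ± 0.66, 1.85 ± 0.33, 1.73 ± 0.50 and 1.38 ± 0.38 CPM in Ce, Tm, Y and the control and at 0.687, 0.619, 0.547, 0.416 and 0.649 in Mix, below every other library. Its smallest log2 difference, from Y, was -1.55 ± 0.24 (edgeR adjusted p = 0.00116 for lying outside). Cre01g002950 had 27 counts in all in Mix (0.572, 0.206, 0.182, 0.208 and 0.300 CPM), against 2.20 ± 0.21 CPM for Ce, 0.904 ± 0.123 for Tm, 1.17 ± 0.29 for Y and 1.26 ± 0.52 for the control. Its smallest difference, from Tm, was -1.62 ± 0.32, a 3.08-fold lower level and the largest such fold of the class (edgeR adjusted p = 0.0261 for lying outside).

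Cre02g112266 was the one gene with Mix above all metals. It had 3.78, 5.67, 6.75, 6.65 and 4.94 CPM in Mix, 1.51, 2.91, 2.39, 2.98 and 1.51 in Tm, 1.01 to 1.71 in Y, 0.446 to 0.999 in Ce and 0.0791 to 0.875 in the control. The Mix libraries lay above all others. Tm and Y were called higher than the control and Ce was not (edgeR adjusted p = 0.265), and Mix exceeded Tm by 1.32 ± 0.27 (edgeR adjusted p = 0.0288 for lying outside). Cre10g456100 had Mix at 26.9 ± 7.7 CPM. Ce stood at 44.4 ± 6.0, Tm at 59.5 ± 11.8, Y at 57.7 ± 5.8 and the control at 51.9 ± 4.0, no metal was called against the control, and Mix library 5 (38.9) overlapped the lowest Ce library (37.6). Its smallest fold was 1.65.

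**Figure D5:**
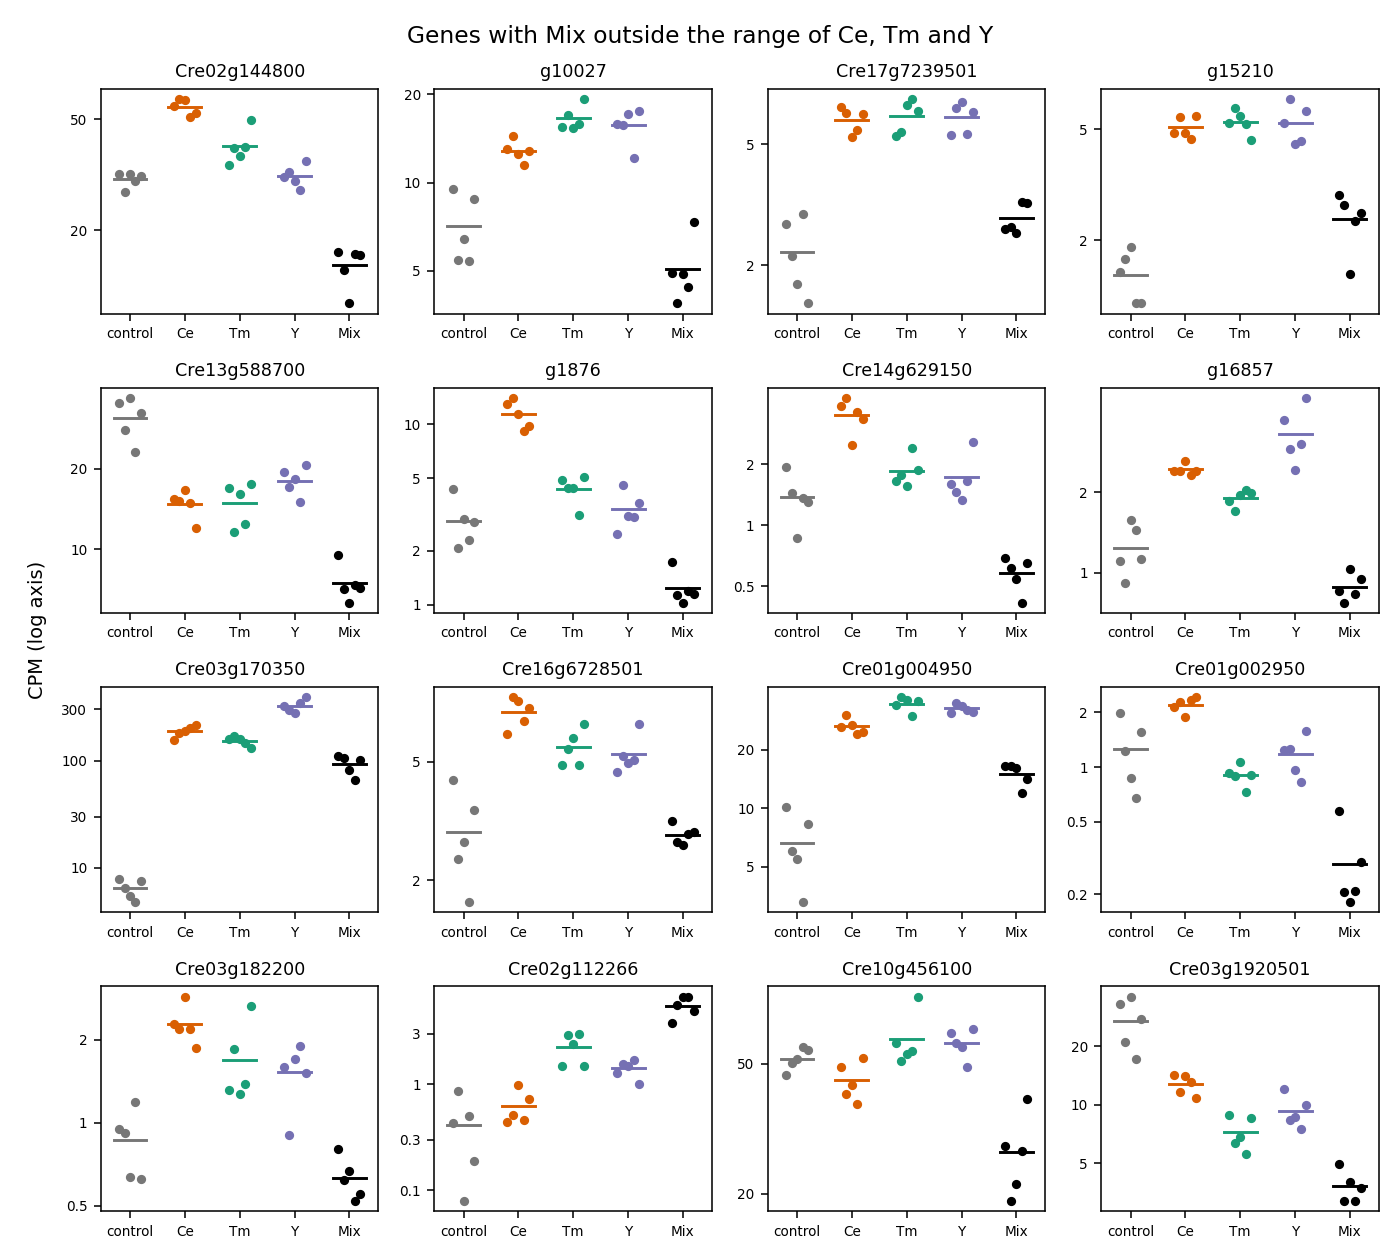
CPM on a log axis (y) by group (x) in the 16 genes with Mix outside the range of Ce, Tm and Y, with 1 point per library and a line at the group mean. Mix is the lowest exposure in 15 panels and the highest in that of Cre02g112266, and the control lies above Mix in some panels and below it in others.

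Read beside the control, the 16 genes had several courses, with calls by edgeR. Mix was called lower than the control in 8, higher in 4 and in neither direction in 4. All metals were called higher than the control in 8 and lower in 2. By group coefficient, Mix lay between the control and every metal in 4 genes, farther from the control than the metals on their side in 3, and on the other side of the control or of the metals' range in 9. For all 12796 genes the calls against the control were 44.9% higher and 36.2% lower for Ce, 32.2% and 37.7% for Tm, 35.9% and 36.7% for Y, and 30.9% and 37.5% for Mix. The nearest metal to Mix was Ce in 6, Tm in 5 and Y in 5. Just past the threshold, with an edgeR adjusted p of 0.0624 for lying outside, came g4546, Cre06g277700, Cre10g448200 and g16130, while the last genes inside had 0.0315.

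A less strict reading, in which Mix was called against each metal by that metal's own adjusted p, gave 70 genes (0.547%), 58 below (0.453%) and 12 above (0.0938%). The 16 genes are among them, and 42 of the 70 had no overlap of libraries. The smallest of the 3 folds had a median of 1.63 (1.25 to 3.88). In 37 of the 58 lower genes all metals were called higher than the control, and in these Mix was also called higher in 26, not called in 10 and lower in 1. All metals were called lower in 2 of the 58, and neither held in 19. Of the 12 upper genes, all metals were called higher in 2 and lower in 4.

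Cre12g503850 gives the course of the largest of these groups. It rose from 8.05 ± 2.50 CPM in the control to 252, 259, 285, 279 and 309 in Ce, 249, 235, 232, 199 and 192 in Tm and 435, 406, 370.0, 429 and 479 in Y. The Mix libraries had 186, 154, 133, 94.9 and 155 CPM, below every single-metal library. Mix was 0.62 ± 0.15 log2 units below Tm (edgeR adjusted p = 0.0420), 0.94 ± 0.15 below Ce and 1.55 ± 0.16 below Y, and its adjusted p for lying outside was 0.139 by edgeR's test. Cre12g503800, Cre12g500100 and Cre12g500050 also had Mix as the lowest and Y as the highest exposure, with Mix at 103 ± 22, 70.7 ± 11.7 and 16.9 ± 3.8 CPM and Tm at 152.5 ± 28.1, 107 ± 9 and 29.8 ± 2.9. These 4 genes were singled out after their values were seen. In the gene order of the reference they form 2 pairs of neighbours, Cre12g503850 with Cre12g503800 and Cre12g500100 with Cre12g500050. Whether the genes of a pair share reads was not tested.

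Large differences from the mean also occurred in genes that were not outside the range. Cre07g349200 exceeded the mean by 2.79 ± 0.20 (edgeR adjusted p = 2.05e-10) with 40.3, 68.0, 61.4, 39.7 and 24.5 CPM in Mix. The Tm libraries had 21.5, 39.2, 29.0, 21.9 and 19.8 CPM and overlapped Mix, so the difference from Tm, 0.84 ± 0.26, was not called (edgeR adjusted p = 0.153). Ce ran from 0.684 to 2.21 CPM and Y from 5.41 to 11.3. Cre13g603550, which was at 188 ± 81 CPM in the control, had a difference from the mean of 2.44 ± 0.28 and from Tm of 0.80 ± 0.34 (edgeR adjusted p = 0.401).

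Set directly against Tm, its nearest metal, Mix was called higher in 25 genes (0.195%) and lower in 125 (0.977%), 6 and 58 of them by at least 2-fold. At an unadjusted p under 0.05 these counts were 485 and 742 genes. The count of 150 was 90 without Mix library 3, 95 without Mix library 4, 89 without Tm library 1 and 94 without Tm library 3. In a fit of these 10 libraries it was 162, and with the replicate number as a block 2329 (1064 higher and 1265 lower). Mix and Tm libraries of 1 number deviated together, and whether the rise comes from this was not tested. The block thus changes how many genes separate Mix from Tm, and the smaller counts are those without it.

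How often Mix differed from the mean, and in which direction, moved with abundance. With the genes divided by mean CPM into 4 equal sets, in the lowest set (median 0.622) 7.13% were called higher and 26.4% lower in Mix, in the next 12.9% and 38.3%, then 23.7% and 35.3%, and in the highest set (median 92.8) 57.2% and 14.9%. The median difference from the mean of the metals went from -0.39 in the lowest to 0.28 in the highest set. Against Tm these medians were -0.02 and 0.03, and against the mean of Tm and Y -0.05 and 0.07. The scaling was not separated from this pattern. On the linear scale, with the arithmetic mean of the metals' levels in place of the mean of their logs, 2021 genes differed from the mean by at least 2-fold (154 higher and 1867 lower) in place of 1284 (313 and 971), with no test.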

How the data were processed

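RNA was measured in 25 libraries, 5 each of control, Ce, Tm, Y and Mix, grouped by their titles. Per the labels' protocols, polyadenylated RNA was made into stranded libraries and sequenced as paired reads of 100 bases on 2 lanes, and which library ran on which lane is not labelled, so no batch could be modelled. Values are the authors' deposited counts of reads per transcript, as whole numbers and not normalised. The submitters' processing notes name SAMtools 1.2, TopHat2 2.0.14 and Trim Galore 0.3.7. Genome build, annotation, counting program and strand setting are not given in sources used here. It follows that reads of overlapping, antisense or near-identical genes cannot be told apart, and neither coordinates nor sequences are printed. In 34 cells the text "PAC:" was removed from the number. A further 1502 IDs stood on 2 lines each and were kept as deposited.

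Counts were fitted with edgeR 4.0.16 in R 4.3.3 (robust quasi-likelihood, TMM scaling, filterByExpr by group, 1 coefficient per group, all 25 libraries), and Mix was contrasted with the mean of the metals, with each metal and with the mean lacking each metal. Adjustment was by Benjamini-Hochberg over 12796 transcripts, with calls under 0.05. SE is the absolute log2 difference over the square root of F, and a prior count of 2 was used for log2 CPM. The code was tested on simulated data. No pair of libraries in a group was alike to within sampling noise (lowest chi-square per degree of freedom 5.45). Depth limits precision most in genes with few counts, and intervals cover counting error only.

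Named genes were, per class, up to 2 higher and 2 lower by size of difference (from the mean, or in the class with Mix outside the metals the smallest of the 3 pairwise differences), with at least 1 CPM in an exposure and all Mix libraries on 1 side of the mean. The members, lists and rules were chosen with earlier results of these data known. The 16 gene lists matched 0 IDs (a locus tag was found for 8769 of 9585 tested Cre IDs in assembly Chlamydomonas_reinhardtii_v5.5, which gives 0 symbols), so none has a result. Deviations from group means correlated between Mix and Tm libraries of the same number at 0.193 to 0.440 (5 of 5 over 0.1), so the numbers were taken to pair these groups, from the data and not the labels. For Mix with Ce (0.0227 to 0.181) and with Y (-0.00174 to 0.226) 3 of 5 were over 0.1. Other normalizations, filters, tests, thresholds, subsets and left-out libraries were tried, with DESeq2 1.42.0 among them.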

Additional observations from a re-analysis of the deposited data

Results flagged for a closer look

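The 5 groups of each of 39 named genes, and the 3 weights over the Mix libraries, were searched for a library whose gap to its nearest neighbour was over 0.71 of the range (Dixon's 95% value for 5 samples), which chance gives in about 1 in 20 groups. It held for 11 of the 198 sets of 5 values searched, and for none of the weights. In the class with Mix outside the metals these were Y library 5 at 2.59 CPM in Cre14g629150 (others 1.33 to 1.66), Mix library 1 at 1.72 in g1876 (1.03 to 1.19), Y library 5 at 6.71 in Cre16g6728501 (4.63 to 5.22) and Tm library 5 at 80.1 in Cre10g456100 (51.0 to 57.9). In genes that turned on 1 metal they were control library 4 at 0.169 in Cre03g153650 (all others at 0), Mix library 5 at 0.0999 in Cre12g513650 (0.0516 to 0.0608), control library 2 at 0.175 in g3415 (0.0626 to 0.0847), and in Cre02g144734 Y library 5 at 8.03 (4.73 to 5.37) and Mix library 1 at 1.72 (3.04 to 3.30). In genes named for their distance from Tm, Tm library 5 had 5.36 CPM in Cre02g144650 (3.46 to 4.00) and control library 4 had 3.90 in Cre07g323500 (4.51 to 4.76).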

How the results depend on the processing

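The number of genes differing from the mean (6904) and of those that turned on Ce (4680) kept within 1.5 times under every setting tried but a required 1.5-fold difference (3792 and 2787). That requirement also gave 2868 calls against Y, 5 genes turning on Tm and 195 on Y. The other counts moved with the model. The share of calls higher in Mix (46.8%) was 54.1% with DESeq2's size factors, 26.9% with library totals, 53.4% by DESeq2, 64.0% without the transcripts with text in a count, 51.2% at an adjusted p under 0.01 and 64.2% with control library 1 as TMM reference. The class with Mix outside the metals (16, 15 below) held 31 genes with library totals, 34 (30 below) by DESeq2, 84 (58) from the 20 exposed libraries, 67 (47) with the replicate block, 10 (7) without the transcripts with text, 8 (8) at 0.01, 10 (7) with control library 1 as reference, 70 (58) by each metal's own adjusted p and 163 (79) by non-overlap. The fit without the transcripts with text also changes the reference to control library 1, and with Tm library 2 kept it gave 16, all 16 of them shared. Calls against Tm (150) were 228 by DESeq2, 407 from the exposed libraries, 288 with the block and 72 at 0.01. In the 10 Mix and Tm libraries the block gave 2329 for 162. Genes with Tm outside the others (3) numbered 5 with upper-quartile factors, 12 by DESeq2, 7 from the exposed libraries, 10 with the block, 6 without the transcripts with text, 0 at 0.01 by edgeR and 6 with control library 1. At 0.01 there were also 2803 calls against Y, 243 genes turning on Y and 310 with Y outside. The arithmetic mean gave 2021 genes past 2-fold for 1284. The block ended no call of a named gene against the mean.

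Leaving out 1 exposed library at a time gave 5335 to 6931 calls against the mean, 45.8% to 69.0% of them higher, 9567 to 10226 against Ce, 89 to 195 against Tm and 3625 to 4995 against Y. Genes with Mix outside ran from 1 to 32 (1 to 24 below), those turning on Ce from 3253 to 4765, on Tm from 7 to 16 and on Y from 271 to 408. Genes with Ce outside ran from 7359 to 7763, with Tm from 0 to 7 and with Y from 419 to 568, and the Tm weight of Mix from 1.00 to 1.14. With Tm library 2 kept as reference the ranges were 8 to 27 for Mix outside (9, 9 of them below, without Mix library 2) and 45.8% to 49.2% for the share higher, and calls against Tm were 95 and 98 without Mix libraries 3 and 4 and 93 and 96 without Tm libraries 1 and 3. The sign of a named gene's difference from the mean turned in 1 case, Cre17g739650, at -0.248 and not called. Its lowest value was -0.494 with library totals alone, where it was called, and with 1 library left out and the reference chosen anew it ran from -0.258 (without Ce library 3) to 0.0139 (without Mix library 1). g5114, Cre03g190000 and Cre02g144734 lost their call in 12 fits in all, and the cause was not tested.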

Other observations

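Some genes called between Mix and Tm were neighbours in the gene order of the reference, with no set test made. Of the 150, 108 matched that reference, and 20 stood in 8 runs of genes at most 3 places apart and called in the same direction. No such count was made for other genes or contrasts, so whether 20 is more than their share is not known. The longest run held Cre02g144800, Cre02g144734, Cre02g144700 and Cre02g144650, 4 of the 5 tested genes in 6 places. All 4 were lower in Mix than in Tm. By group mean 3 of them had the order Ce, Mix, Y and Tm from low to high, while in Cre02g144800 Mix was lowest and Ce highest. Cre02g144700 had 82.3, 106, 94.1, 105 and 117 CPM in Mix, 267, 311, 269, 312 and 381 in Tm, 147 to 207 in Y and 59.3 to 82.3 in Ce. Mix and Tm lay far apart there, Mix touched the highest Ce library, and the log2 difference from Tm was -1.61 ± 0.15 (edgeR adjusted p = 1.55e-07). Cre02g144650 was at 1.81 ± 0.49 CPM in Mix, 4.14 ± 0.72 in Tm, 2.62 ± 0.48 in Y and 1.11 ± 0.25 in Ce (-1.18 ± 0.22 from Tm, edgeR adjusted p = 0.00264). Between them Cre02g144750 was not called against Tm (edgeR adjusted p = 0.543). Whether these genes share reads was not tested.

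In another run, of Cre17g739600, Cre17g739650 and Cre17g739700, Mix was lower than Tm, and in Cre17g739700 its mean was also below that of Ce (3.20 and 3.73 CPM). Cre17g739650 had 26.5, 42.8, 43.9, 45.4 and 30.9 CPM in Mix, 123, 153, 144, 156 and 145 in Tm, 77.1 to 99.9 in Y, 6.28 to 7.15 in Ce and 8.22 to 16.2 in the control. No groups of exposed libraries overlapped. The log2 difference of Mix was -1.93 ± 0.15 from Tm and 2.46 ± 0.16 from Ce (edgeR adjusted p = 2.18e-09 and 5.18e-13). Its difference from the mean of the metals was -0.25 ± 0.12 and not called (edgeR adjusted p = 0.0813), so a gene in which Mix lay far from every metal can be absent from the calls against the mean. A further run held Cre07g323400, Cre07g323450 and Cre07g323500. Cre07g323500 stood at 68.3 ± 12.1 CPM in Mix, against 85.3 ± 21.8 in Ce, 101 ± 10 in Tm and 211 ± 25 in Y. Mix was not called against Ce in Cre07g323400 (3.35 and 3.51 CPM, edgeR adjusted p = 0.845). The same held in Cre07g323450, where Mix had the higher mean (5.49 and 4.78 CPM, edgeR adjusted p = 0.384). All were singled out after their values were seen.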
